A study of Homo sapiens with 12 samples.

Results

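The genes described here are textbook direct targets of p53, chosen by name from a list of 33 genes. The list was made with earlier results of these data known. Of these, 32 were among the 15074 genes in the tables and EDA2R was not. p53 is a transcription factor that is kept low by the ubiquitin ligase MDM2, itself a p53 target, and that accumulates when DNA is damaged or cells are otherwise stressed. Its targets stop the cell cycle (CDKN1A, which encodes the cyclin-dependent kinase inhibitor p21), sensitise cells to death (FAS, BAX), repair DNA (XPC, DDB2) and feed back on p53 itself (MDM2, PPM1D). HCT116, a human colorectal carcinoma line, is known to carry wild-type p53, and several p53 targets, CDKN1A among them, are known targets of microRNAs.

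RNA was sequenced from HCT116 cells of 4 genotypes: AGO2 KO cells, AGO2 KO cells given back wild-type AGO2 (FH-AGO2 WT), AGO2 KO cells given back a 5xA mutant of AGO2 (FH-AGO2 5xA), and parental cells. AGO2 is an Argonaute, a protein that uses a bound microRNA to find and repress mRNAs, and the series is set in the study of an Argonaute phosphorylation cycle. Each genotype had 3 libraries, from wells collected 48 hours after seeding, with no DNA-damaging treatment named in the labels. The labels name a single line for each genotype, and both reconstituted lines carry the AGO2 knockout and the tag abbreviated FH. The promoter that drives the restored AGO2 is not given in the labels, so differences between lines cannot be told apart from differences between the clones or pools they were grown from.

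The values are log2 fold changes, false discovery rates (FDR) and a mean expression in log2 CPM (counts scaled to library size) from the authors' deposited tables, and library depth is not known from them. A gene was called at an FDR under 0.05, and errors are standard errors (SE) derived from the deposited test scores. The level of a gene in each line is a fitted CPM, obtained by spreading its deposited mean over the lines with the deposited fold changes, and it carries no error of its own. AGO2 mRNA had fitted levels of 160.8 CPM in AGO2 KO cells, 270.1 CPM in FH-AGO2 WT cells, 266.9 CPM in FH-AGO2 5xA cells and 205.2 CPM in parental cells. It fell by 0.35 on the log2 scale in AGO2 KO cells against parental cells in the authors' deposited table (SE 0.07, FDR = 1.42e-06), and which part of the gene was edited is not stated in the labels. Of 9 colorectal epithelial markers, 6 were in the tables (EPCAM, KRT8, KRT18, KRT19, CDH1 and CDX2), as were 1 of 7 fibroblast markers (COL1A1), 2 of 4 markers of embryonic kidney or neural cells (PAX2 and PAX8) and none of 5 blood or 4 endothelial markers. Some of these moved in AGO2 KO against parental cells in the authors' deposited table: CDH1 fell by 0.97, EPCAM by 0.58 and KRT18 by 0.46 on the log2 scale, KRT8, KRT19, CDX2 and PAX8 were not called, and COL1A1 rose by 0.59 (FDR = 0.0295) and PAX2 by 0.85 (FDR = 0.000122). Their part in the values of the p53 targets was not tested. Mean expression of the p53 targets ran from 1.58 for SPATA18 to 8.82 for MDM2 with a median of 5.90 (log2 CPM), against a median of 4.45 over all genes.

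p53 binds DNA as a tetramer at a pair of 10-base elements, and the promoter windows of the members were searched for it because such sites are known from several direct targets. Windows of 250 bases before to 50 bases after each start site (RefSeq, GRCh38.p14) were found for 26 of the 33 listed genes. TP53INP1, RRM2B, GADD45A, TNFRSF10A, PHLDA3, TNFRSF10B and FBXO22 had no window and were not searched. Sequence outside the windows was not searched for any gene. The 10-base element reads as itself on the other strand, so a search of one strand covers both. It occurred in the windows of 7 members (AEN, DDB2, FAS, FDXR, PLK2, RPS27L and SESN1), which is 26.9% of members against 7.6% of 10183 genes in the tables. The 4-base core CATG, which an element may contain, did not set the members apart, at 42.3% of members against 52.7% of genes. A paired site of 20 bases, allowing 2 mismatches without a gap or exact elements up to 13 bases apart, occurred in 4 members (15.4%) against 0.7% of genes. These sites are given with the paired elements in capitals, because their genes behaved differently in the knockout.
FAS, chr10:88991304-88991333, plus strand: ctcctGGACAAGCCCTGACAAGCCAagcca
MDM2, chr12:68808918-68808947, plus strand: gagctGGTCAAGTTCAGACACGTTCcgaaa
DDB2, chr11:47214974-47215004, plus strand: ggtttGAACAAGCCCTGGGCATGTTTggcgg
AEN, chr15:88621301-88621330, plus strand: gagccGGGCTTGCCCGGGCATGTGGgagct
The DDB2 site holds exact elements with a gap of 1 base, and the sites of FAS, MDM2 and AEN each have 2 mismatches and no gap. The members were listed as p53 targets, so these shares describe the list and were not tested.

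AGO2 KO cells had more mRNA of most p53 targets than parental cells. The authors' deposited table had 24 of 32 members that rose, 0 that fell and 8 not called, where 23.2% of all genes rose and 21.2% fell (44.4% called in all). The median log2 fold change was 0.59 over the members and -0.01 over all genes. The rise reached at least 2-fold in 7 members, CDKN1A, TP53INP1, SPATA18, GDF15, BTG2, FAS and ZMAT3. Of all 15074 genes, 699 were called and changed at least 2-fold in either direction. Cell cycle and feedback genes were called throughout (6 of 6 and 4 of 4), against 7 of 13 measured apoptosis and survival genes, 3 of 4 genes of DNA repair and nucleotide supply, and 4 of 5 genes of metabolism, mitochondria and secreted signals. Group medians of the log2 fold change were 0.75 for cell cycle arrest, 0.48 for feedback, 0.35 for apoptosis and survival, 0.34 for repair and nucleotide supply, and 0.79 for metabolism, mitochondria and secreted signals.

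**Figure D1:**
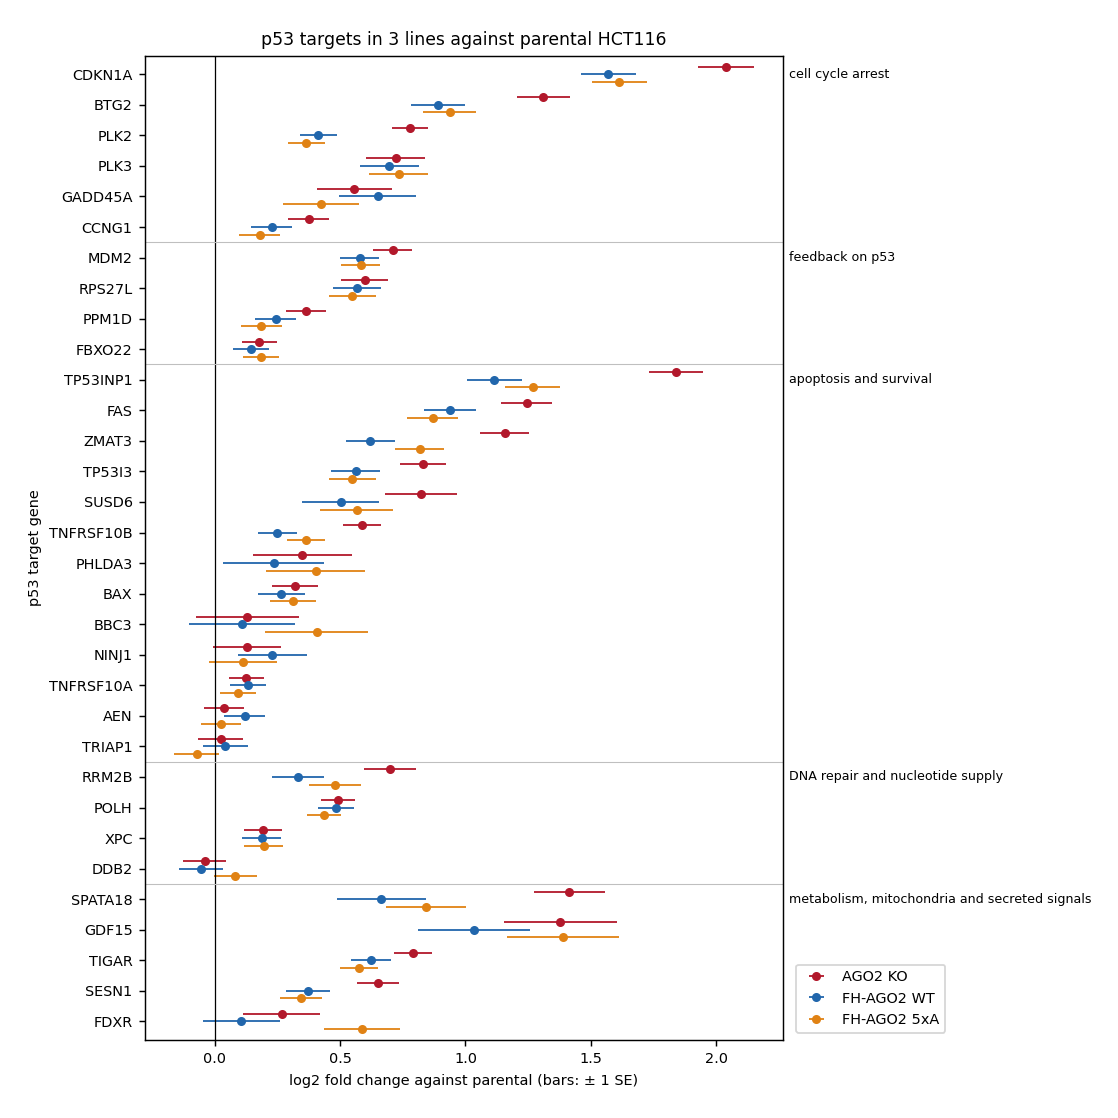
Log2 fold changes of the 32 measured p53 targets in AGO2 KO, FH-AGO2 WT and FH-AGO2 5xA cells, each against parental cells, from the authors' deposited tables, with bars of 1 SE and genes grouped by role. CDKN1A stands highest in all 3 lines at 2.04, 1.57 and 1.61, while AEN, TRIAP1 and DDB2 lie near 0.

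CDKN1A (ENSG00000124762, chr6:36676460-36687339, GRCh38, plus strand) encodes p21, the inhibitor through which p53 halts the cell cycle. Its fitted level was 347.7 CPM in AGO2 KO cells, 251.3 CPM in FH-AGO2 WT cells, 259 CPM in FH-AGO2 5xA cells and 84.6 CPM in parental cells. The knockout was therefore highest and parental cells lowest, with both reconstituted lines between them. CDKN1A rose in the authors' deposited table by 2.04 ± 0.11 (log2, SE; 4.11-fold) in AGO2 KO against parental cells, at an FDR of 2.15e-72, the largest log2 change among the members. BTG2, an antiproliferative gene that helps arrest cells in G1, had fitted levels of 78.1 CPM in AGO2 KO cells, 58.4 CPM in FH-AGO2 WT cells, 60.3 CPM in FH-AGO2 5xA cells and 31.5 CPM in parental cells. It rose by 1.31 ± 0.11 on the log2 scale in the authors' deposited table for AGO2 KO against parental cells (FDR = 7.05e-33). The other cell cycle members rose less: the polo-like kinases PLK2 and PLK3 were at 0.78 ± 0.07 and 0.72 ± 0.12, the DNA damage gene GADD45A at 0.56 ± 0.15 and the cyclin CCNG1 at 0.37 ± 0.08 in the authors' deposited table.

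The feedback genes are those that restrain p53 or are made in its negative loops. MDM2 (ENSG00000135679, chr12:68808176-68850686, plus strand), the ligase that marks p53 for degradation, had fitted levels of 524.6 CPM in AGO2 KO cells, 478.9 CPM in FH-AGO2 WT cells, 480.2 CPM in FH-AGO2 5xA cells and 321 CPM in parental cells. As for CDKN1A and BTG2, the reconstituted lines lay between the knockout and parental cells, and the authors' deposited table for AGO2 KO against parental cells gave 0.71 ± 0.08 (log2, FDR = 3.97e-18). PPM1D, the phosphatase WIP1 that removes activating phosphates from p53, rose by 0.36 ± 0.08, and RPS27L, a ribosomal protein paralog that binds MDM2, by 0.60 ± 0.09 in the authors' deposited table. FBXO22, an F-box protein that targets p53 bound by KDM4A, was the smallest called rise of the group at 0.18 ± 0.07 (FDR = 0.0292 in the authors' deposited table). In GENCODE 29, 16.2% of FBXO22 exon bases lie on exons of NRG4 on the other strand, and NRG4 stood at 2.63 (log2) in the same deposited table. The kit marks strand but the strand setting of the counting is not given, and RPS27L has a close paralog, RPS27, so these 2 values are uncertain.

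Among the apoptosis and survival genes the rises were uneven. TP53INP1 (ENSG00000164938, chr8:94925972-94949411, minus strand), a stress protein that promotes p53 activity and autophagy, had fitted levels of 87.9 CPM in AGO2 KO cells, 53.2 CPM in FH-AGO2 WT cells, 59.1 CPM in FH-AGO2 5xA cells and 24.5 CPM in parental cells. It rose by 1.84 ± 0.11 on the log2 scale in the authors' deposited table for AGO2 KO against parental cells (FDR = 2.93e-62). ZMAT3 (ENSG00000172667, chr3:179017223-179072279, minus strand), an RNA-binding splicing regulator, had 85.7 CPM in AGO2 KO cells, 59.1 CPM in FH-AGO2 WT cells, 67.7 CPM in FH-AGO2 5xA cells and 38.4 CPM in parental cells. Its deposited log2 fold change in the authors' deposited table for AGO2 KO against parental cells was 1.16 ± 0.10 (FDR = 1.24e-30). Both genes thus shared the order of CDKN1A, with the knockout highest and parental cells lowest.

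The death receptors did not move together. FAS (ENSG00000026103, chr10:88990582-89015785, plus strand), the receptor of FAS ligand, had fitted levels of 43.0 CPM in AGO2 KO cells, 34.8 CPM in FH-AGO2 WT cells, 33.1 CPM in FH-AGO2 5xA cells and 18.1 CPM in parental cells, and rose by 1.24 ± 0.10 in the authors' deposited table (log2, FDR = 7.91e-33). ACTA2, on the other strand, shares 8.93% of the FAS exon bases and stood at 1.41 in the same deposited table. TNFRSF10B, which encodes the TRAIL receptor DR5, rose by 0.59 ± 0.08 in the authors' deposited table, whereas TNFRSF10A, which encodes DR4, was at 0.13 ± 0.07 and was not called (FDR = 0.135). TP53I3, a quinone reductase, and SUSD6, a membrane protein that binds ubiquitin ligases, rose by 0.83 ± 0.09 and 0.82 ± 0.14 in the authors' deposited table. Of the BCL2 family, the effector BAX rose by 0.32 ± 0.09, and the BH3-only gene BBC3, which encodes PUMA, was at 0.13 ± 0.21 in the authors' deposited table and was not called (FDR = 0.639). The AKT inhibitor PHLDA3 (0.35 ± 0.20), the nuclease AEN (0.04 ± 0.08), the mitochondrial protein TRIAP1 (0.02 ± 0.09) and the membrane rupture protein NINJ1 (0.13 ± 0.14) were not called in the authors' deposited table. SEs of 0.20 and 0.21 for PHLDA3 and BBC3 are among the widest of the members, so a rise of the size seen in BAX was not detectable for them.

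RRM2B, the p53-inducible subunit of ribonucleotide reductase, had fitted levels of 232 CPM in AGO2 KO cells, 179.7 CPM in FH-AGO2 WT cells, 199.1 CPM in FH-AGO2 5xA cells and 142.9 CPM in parental cells, and rose by 0.70 ± 0.10 in the authors' deposited table for AGO2 KO against parental cells. The translesion polymerase gene POLH rose by 0.49 ± 0.07 and the damage sensor XPC by 0.19 ± 0.08 (FDR = 0.0322) in that deposited table of the authors. XPC shares 6.63% of its exon bases with LSM3 on the other strand, which was at -0.48 (log2) in the authors' deposited table. DDB2, the partner of XPC in finding ultraviolet damage, was level across the lines, with fitted levels of 52.0 CPM in AGO2 KO cells, 51.4 CPM in FH-AGO2 WT cells, 56.6 CPM in FH-AGO2 5xA cells and 53.5 CPM in parental cells. Its log2 fold change was -0.04 ± 0.09 in the authors' deposited table for AGO2 KO against parental cells (FDR = 0.721). Of the genes with a paired p53 site in the promoter window, FAS and MDM2 rose, while DDB2, which has the exact elements, and AEN were not called.

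SPATA18, which acts in mitochondrial quality control, had the lowest mean expression of the members, with fitted levels of 4.51 CPM in AGO2 KO cells, 2.68 CPM in FH-AGO2 WT cells, 3.04 CPM in FH-AGO2 5xA cells and 1.69 CPM in parental cells. It rose by 1.41 ± 0.14 in the authors' deposited table (log2, FDR = 1.7e-21). GDF15 (ENSG00000130513, chr19:18374731-18389176, plus strand), a secreted stress cytokine, had fitted levels of 88.5 CPM in AGO2 KO cells, 69.6 CPM in FH-AGO2 WT cells, 89.1 CPM in FH-AGO2 5xA cells and 34.0 CPM in parental cells. It was as high in FH-AGO2 5xA cells as in the knockout, and its log2 fold change in the authors' deposited table for AGO2 KO against parental cells was 1.38 ± 0.22 (FDR = 9.77e-09). TIGAR, a phosphatase that lowers glycolytic flux, rose by 0.79 ± 0.08 and SESN1, a stress-responsive inhibitor of mTORC1, by 0.65 ± 0.08 in the authors' deposited table. FDXR, the mitochondrial ferredoxin reductase, was at 0.27 ± 0.15 and was not called (FDR = 0.145 in the authors' deposited table).

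**Figure D2:**
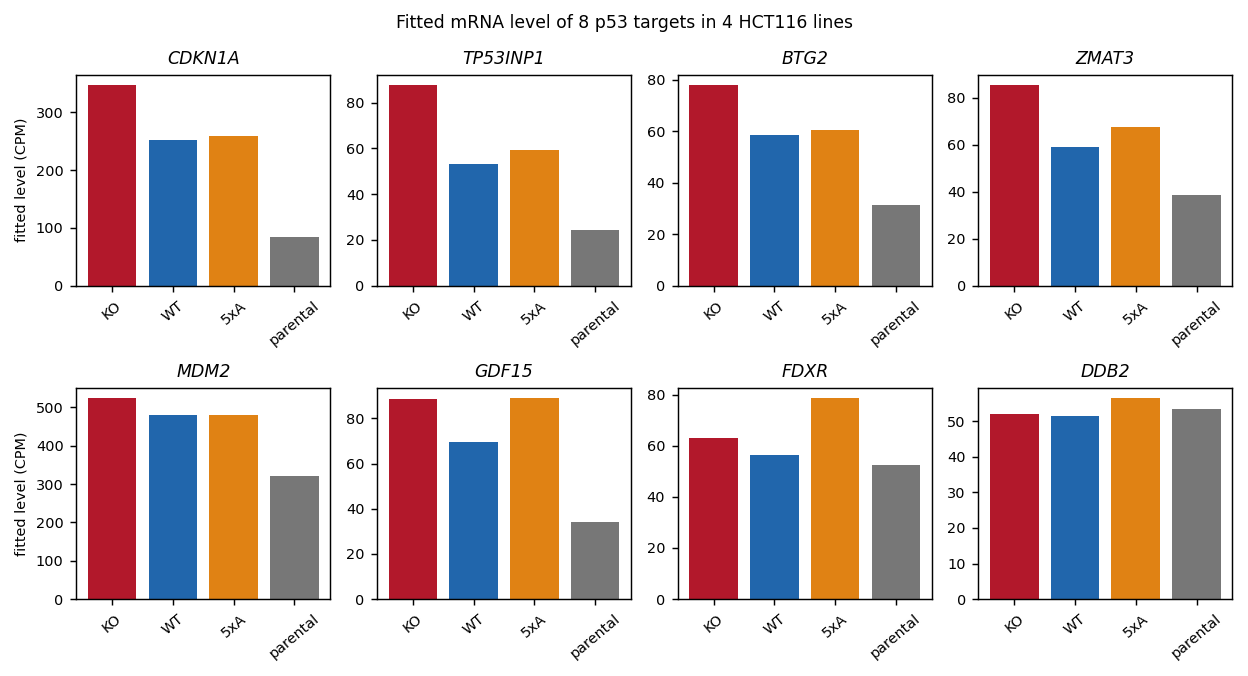
Fitted level (CPM) of 8 p53 targets in AGO2 KO, FH-AGO2 WT, FH-AGO2 5xA and parental cells, with axes starting at 0 and no error bars because no values per library were used. CDKN1A, TP53INP1, BTG2 and ZMAT3 were highest in the knockout and lowest in parental cells, FDXR was highest in FH-AGO2 5xA cells at 78.7 CPM, and DDB2 was level.

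Cells given back wild-type AGO2 had less mRNA of part of the p53 targets than AGO2 KO cells. In the authors' deposited table for FH-AGO2 WT against AGO2 KO, 0 members rose, 11 fell and 21 were not called, where 4.21% of all genes rose and 5.85% fell (10.1% called in all). The members that fell were CDKN1A, BTG2, PLK2, FAS, TNFRSF10B, TP53INP1, TP53I3, ZMAT3, RRM2B, SESN1 and SPATA18. The median log2 fold change was -0.14 over the members and 0.01 over all genes, and 27 of 32 members lay below 0. The AGO2 KO libraries enter this comparison as well as that against parental cells, so a high value in them moves both and the results are not independent.

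The changes were smaller than those between knockout and parental cells, and none reached 2-fold. Such changes were rare over all genes too, with 75 of 15074 called and at least 2-fold in FH-AGO2 WT against AGO2 KO. SPATA18 fell by 0.75 on the log2 scale (SE 0.14, FDR = 1.3e-05) and TP53INP1 fell by 0.73 (SE 0.11, FDR = 2.08e-09) in the authors' deposited table for FH-AGO2 WT against AGO2 KO. ZMAT3 fell by 0.54 (SE 0.10, FDR = 4.41e-06), CDKN1A by 0.47 (SE 0.11, FDR = 0.0006) and BTG2 by 0.42 (SE 0.11, FDR = 0.00238) in the same table of the authors' deposited values. None of the 4 feedback genes was called by the authors' edgeR test, nor did any pass an unadjusted p of 0.05 (0 of 4): MDM2 was at -0.13 ± 0.08 (FDR = 0.298) and PPM1D at -0.12 ± 0.08 in the authors' deposited table. The deposited test refers its score to a chi-square distribution, and referred to an F distribution with 8 residual degrees of freedom 1 member, TP53INP1, was called lower.

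In cells given back the 5xA mutant the picture was of like size. The authors' deposited table for FH-AGO2 5xA against AGO2 KO held 0 members that rose, 11 that fell and 21 that were not called, where 5.04% of all genes rose and 6.24% fell (11.3% called in all). The members that fell were CDKN1A, BTG2, PLK2, FAS, TNFRSF10B, TP53INP1, TP53I3, ZMAT3, SESN1, TIGAR and SPATA18. The median log2 fold change was -0.13 over the members and 0.01 over all genes, and 24 of 32 members lay below 0. TP53INP1 and SPATA18 fell by 0.57 each (SE 0.10 and 0.13), CDKN1A by 0.42 (SE 0.11, FDR = 0.00192), PLK2 by 0.41 (SE 0.07) and FAS by 0.38 (SE 0.10) in the authors' deposited table. RRM2B was at -0.22 ± 0.10 and was not called (FDR = 0.158), and TIGAR fell by 0.21 (SE 0.07, FDR = 0.0389) in that deposited table of the authors. Of the 4 feedback genes 0 were called by the authors' edgeR test. PPM1D, at -0.18 ± 0.08 (FDR = 0.131), passed an unadjusted p of 0.05 by that test. With the F reference 0 members were called in this comparison, and 12 passed an unadjusted p of 0.05 by that test. The comparisons of the reconstituted lines with the knockout share the AGO2 KO libraries, so their calls are given side by side and their overlap was not tested.

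**Figure D3:**
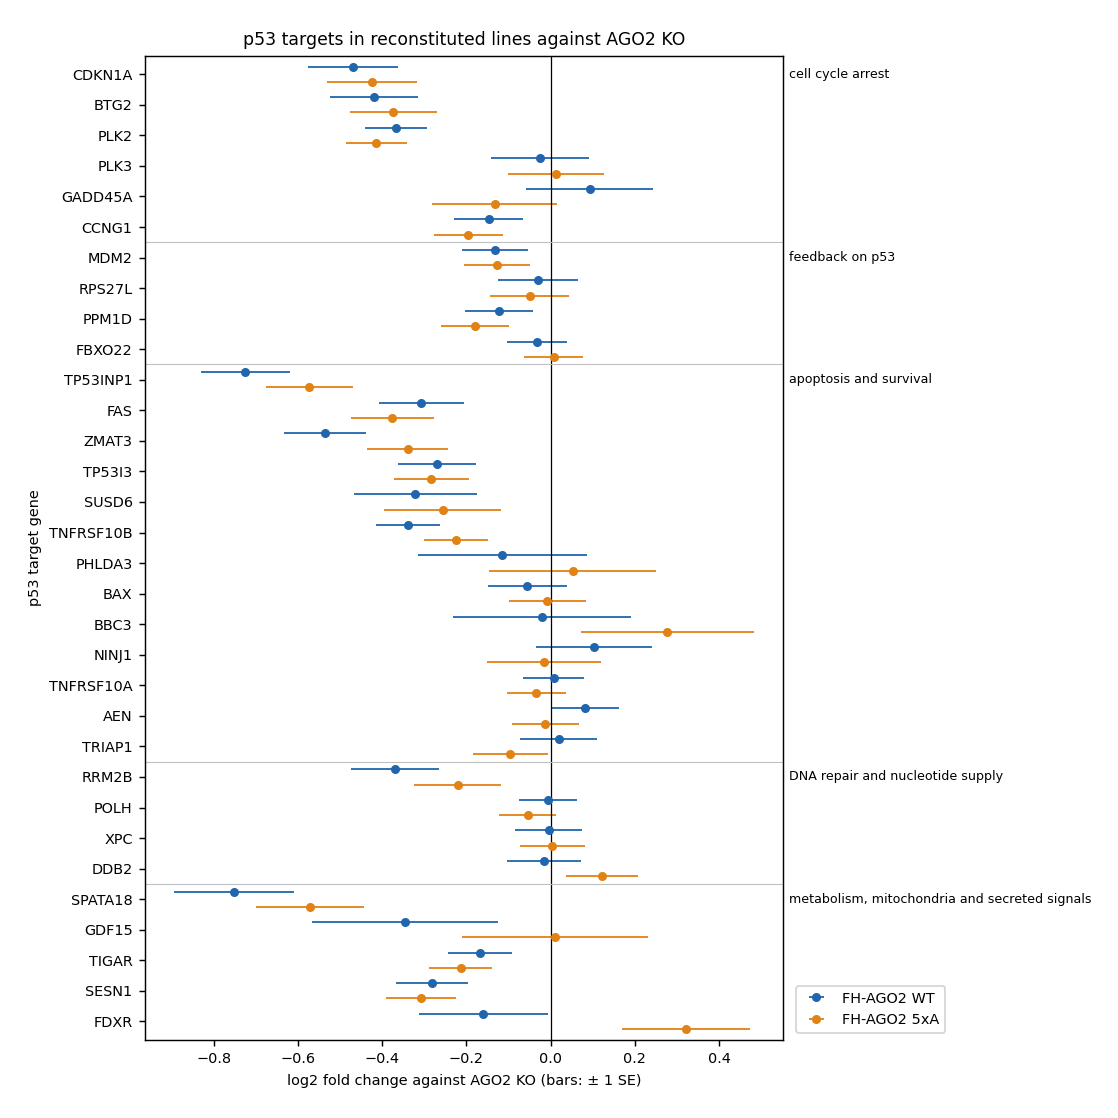
Log2 fold changes of the 32 measured p53 targets in FH-AGO2 WT and FH-AGO2 5xA cells, each against AGO2 KO cells, from the authors' deposited tables, with bars of 1 SE and genes grouped by role. TP53INP1 lies at -0.73 in FH-AGO2 WT cells and -0.57 in FH-AGO2 5xA cells. The feedback genes lie from -0.13 to -0.03 in FH-AGO2 WT cells and from -0.18 to 0.01 in FH-AGO2 5xA cells. FDXR is at -0.16 in FH-AGO2 WT cells and 0.32 in FH-AGO2 5xA cells.

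Both reconstituted lines still had more p53 target mRNA than parental cells. In the authors' deposited table for FH-AGO2 WT against parental cells 22 members rose, 0 fell and 10 were not called, where 18.3% of all genes rose and 16.1% fell (34.4% called in all). In that for FH-AGO2 5xA against parental cells 24 rose, 0 fell and 8 were not called, where 22.9% of all genes rose and 20.9% fell (43.8% called in all). Medians over the members were 0.39 in FH-AGO2 WT cells and 0.43 in FH-AGO2 5xA cells (log2 against parental cells). In each line CDKN1A, TP53INP1 and GDF15 were the 3 members that rose at least 2-fold. Of all 15074 genes, 627 in FH-AGO2 WT cells and 834 in FH-AGO2 5xA cells were called and changed at least 2-fold in either direction. CDKN1A was at 1.57 ± 0.11 in FH-AGO2 WT cells and 1.61 ± 0.11 in FH-AGO2 5xA cells, TP53INP1 at 1.12 ± 0.11 and 1.27 ± 0.11, and GDF15 at 1.03 ± 0.22 and 1.39 ± 0.22, in the authors' deposited tables. MDM2 was at 0.58 ± 0.08 in each line in those deposited tables of the authors. FDXR rose in FH-AGO2 5xA cells (0.59 ± 0.15, FDR = 5.22e-04) and was not called in FH-AGO2 WT cells (0.11 ± 0.15, FDR = 0.634) in the authors' deposited tables. These comparisons share the parental libraries.

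The question of the series is how cells with 5xA AGO2 differ from cells with wild-type AGO2, and among the p53 targets the difference was called for a single gene. No deposited table compares these lines, so the difference was taken as FH-AGO2 5xA against AGO2 KO minus FH-AGO2 WT against AGO2 KO, with an SE solved from the deposited scores and p-values adjusted over 15072 genes. By this derived test 1 member, FDXR, was higher in FH-AGO2 5xA cells and 0 were lower, where 1.98% of all genes were higher and 2.13% lower (4.11% called in all). At an unadjusted p of 0.05 the counts were 2 higher and 0 lower. The median difference over the members was 0.02, and differences ran from -0.23 for GADD45A to 0.48 for FDXR, with 18 members above 0 and 14 below.

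FDXR (ENSG00000161513, chr17:74862497-74873031, minus strand) had fitted levels of 78.7 CPM in FH-AGO2 5xA cells, 56.4 CPM in FH-AGO2 WT cells, 63.0 CPM in AGO2 KO cells and 52.4 CPM in parental cells. The difference of FH-AGO2 5xA minus FH-AGO2 WT was 0.48 ± 0.15 (log2, SE), with a 95% interval of 0.18 to 0.78 and an adjusted p of 0.0443. The call ended with the F reference, with a variance taken as the plain sum of both squared SEs, at a threshold of 0.01 and with a minimum of 1.5-fold. FDXR was not called in either reconstituted line against the knockout, at 0.32 ± 0.15 in FH-AGO2 5xA cells (FDR = 0.16) and -0.16 ± 0.15 in FH-AGO2 WT cells (FDR = 0.575) in the authors' deposited tables.

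For the other members the intervals bound the difference, given the spread among wells of the same line. CDKN1A differed by 0.04 ± 0.11 (95% interval -0.16 to 0.25, adjusted p = 0.869) and MDM2 by 0.00 ± 0.08 (interval -0.15 to 0.16). TP53INP1 was at 0.15 ± 0.11 (interval -0.05 to 0.36) and ZMAT3 at 0.20 ± 0.10 (interval 0.01 to 0.39, adjusted p = 0.242). GDF15, with one of the widest errors, was at 0.36 ± 0.22 (interval -0.08 to 0.79, adjusted p = 0.376), and so its lines could differ by over 1.5-fold or not at all. For 29 of 32 members the interval lay within 1.5-fold in either direction, and the exceptions were BBC3, FDXR and GDF15. A missed threshold does not show that the lines are alike, but differences beyond that size lie outside these intervals for the 29.

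**Figure D4:**
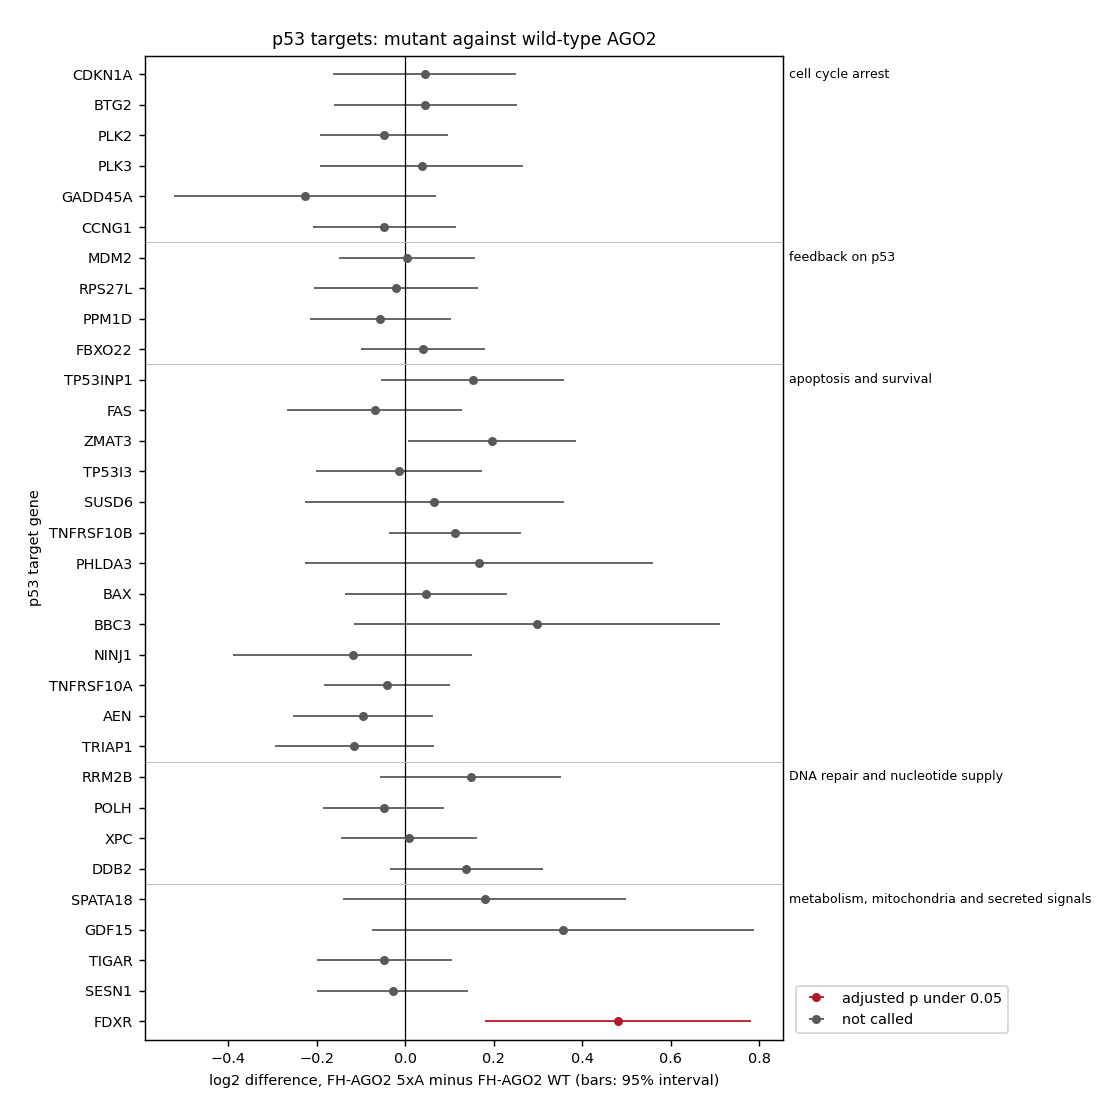
Log2 difference of FH-AGO2 5xA minus FH-AGO2 WT for the 32 measured p53 targets, with 95% intervals and genes grouped by role. FDXR at 0.48 is the single gene with an adjusted p under 0.05, and GDF15 and BBC3 have wide intervals.

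The microRNA seed matches that the members carry were listed because AGO2 acts through them. Mature sequences of the miR-17 family, of which miR-106b and miR-93 are known to act on CDKN1A, are given from RefSeq (GRCh38.p14) with the seed, bases 2 to 8, in capitals.
hsa-miR-17-5p: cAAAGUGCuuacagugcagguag
hsa-miR-20a-5p: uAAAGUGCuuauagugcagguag
hsa-miR-93-5p: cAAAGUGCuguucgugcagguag
hsa-miR-106b-5p: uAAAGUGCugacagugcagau
All 4 share the seed, whose 7-base match in an mRNA is GCACTTT. In the longest annotated 3′ untranslated region (UTR) of each gene, 12 of 32 members (37.5%) held the match on the sense strand, against 25.9% of 11742 protein-coding genes in the tables with such a region. Median lengths were close, at 1442.5 bases for members and 1417 bases for genes. The longest regions among members, of MDM2 (10837 bases), FBXO22 (9408 bases) and ZMAT3 (7794 bases), all held a match. Length was not matched between genes with and without one. The members were CDKN1A, MDM2, RPS27L, TP53INP1 and SUSD6 with 2 matches each, and FBXO22, TNFRSF10A, TNFRSF10B, ZMAT3, AEN, POLH and TIGAR with 1 each. Of the 17 matches in members 8 (47.1%) share the same flanking bases, a setting that also held 32.1% of the 4445 matches in all genes, and 6 of the 12 members have a match outside it (AEN, CDKN1A, MDM2, SUSD6, TNFRSF10B and TP53INP1).

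Matches outside that shared setting are given for 4 of these members, with the seed match in capitals and the bases around it (GENCODE 29, GRCh38).
CDKN1A, chr6:36686252-36686276, plus strand: gagaagtaaacagatgGCACTTTga
CDKN1A, chr6:36686932-36686956, plus strand: ccctccccagttcattGCACTTTga
MDM2, chr12:68846861-68846885, plus strand: gtctggcaggtagtaaGCACTTTta
SUSD6, chr14:69712688-69712712, plus strand: ctccgcgcttacacacGCACTTTac
AEN, chr15:88630510-88630534, plus strand: tgtggttttgctaatgGCACTTTac
CDKN1A, MDM2 and SUSD6 rose in AGO2 KO against parental cells and AEN was not called. Against the knockout CDKN1A fell in both reconstituted lines, and MDM2, SUSD6 and AEN were called in neither. TP53INP1 and TNFRSF10B also have a match outside the shared setting, which is not printed here. Both rose in AGO2 KO against parental cells and fell in both reconstituted lines against the knockout.

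Members with the match and members without it leaned the same way in each comparison with the knockout. In the authors' deposited table for AGO2 KO against parental cells the median log2 fold change was 0.65 for the 12 members with it and 0.47 for those without, where medians over all genes were 0.09 and -0.03. For FH-AGO2 WT against AGO2 KO the medians were -0.15 for members with it and -0.14 for those without, against -0.05 and 0.01 over all genes. For FH-AGO2 5xA against AGO2 KO they were -0.17 for members with it and -0.11 for those without, against -0.04 and 0.01 over all genes. Among the 7 members that rose at least 2-fold in the knockout, CDKN1A, TP53INP1 and ZMAT3 have a miR-17 match, as do 37.5% of all members. BTG2, FAS, SPATA18 and GDF15 have none, although BTG2, FAS and SPATA18 have matches of other families. Matches of 8 other families were counted too, and the widest gap was for miR-24, in 12 members (37.5%) against 18.6% of genes. In FH-AGO2 WT against AGO2 KO the medians of members with and without a match differed in gap by family. They were -0.32 and -0.06 for miR-15/16, -0.32 and -0.09 for miR-200bc, and -0.30 and -0.12 for miR-24. They were -0.28 and -0.12 for miR-22, -0.233 and -0.127 for miR-19, -0.235 and -0.135 for miR-21, and -0.17 and -0.14 for let-7. For miR-34a the order was reversed, at -0.055 and -0.147. Over all genes the medians of these 8 families ran from -0.065 to -0.031 with a match and from 0.001 to 0.009 without. Matches to miR-34a, itself a product of a p53 target gene, were in 15.6% of members and 18.0% of genes. No test was made on these shares or medians, and a match is not evidence of a working site.

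The regulators of p53 went in both directions in the knockout. MDM4, the MDM2 relative that blocks p53 activity, was at -0.07 ± 0.08, and the p53 relative TP73 was at 0.00 ± 0.17 in the authors' deposited table for AGO2 KO against parental cells, neither called. TP63 was not among the genes in the tables. Of 32 measured genes on the list of regulators and cofactors 6 rose and 9 fell in the knockout, with a median of -0.06. That is 18.8% and 28.1% of them, against 23.2% and 21.2% of all genes. The 4 with the smallest p were HIPK2, a kinase that activates p53 (1.81 ± 0.14), the checkpoint kinases CHEK1 (-0.48 ± 0.07) and CHEK2 (-0.55 ± 0.09), and the acetyltransferase EP300 (0.72 ± 0.14) in the authors' deposited table. HIPK2 lies on chromosome 7. Without that chromosome 6091 genes were called in AGO2 KO against parental cells, against 6695 with it. In FH-AGO2 WT against AGO2 KO the counts were 1443 and 1516. A part of the chromosome in the HIPK2 value was not tested. In FH-AGO2 WT against AGO2 KO 0 of the 32 regulators were called by the authors' edgeR test, where 10.1% of all genes were. At an unadjusted p of 0.05 by that test 4 regulators were higher and 0 lower. Of all 15074 genes 1718 were higher and 1899 lower at that p.

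A further list of direct p53 targets that are not members leaned the same way in the knockout. Like the members, this list was chosen with earlier results of these data known, so it is not an independent check. In the authors' deposited table for AGO2 KO against parental cells 41 of 78 rose and 6 fell (median 0.26), against 23.2% and 21.2% of all genes. The smallest p-values belonged to TGFA, a ligand of the EGF receptor (1.26 ± 0.07), TLR3, a sensor of double-stranded RNA (2.11 ± 0.14), PTP4A1, a phosphatase (1.86 ± 0.13), and ENC1, an actin-binding protein (0.59 ± 0.07), in the authors' deposited table. Against AGO2 KO 0 rose and 13 fell (16.7%) in FH-AGO2 WT cells in the authors' deposited table, where 5.85% of all genes fell. In FH-AGO2 5xA cells 4 rose (5.13%) and 7 fell (8.97%), near the shares of 5.04% and 6.24% over all genes. TLR3 fell by 1.24 in FH-AGO2 5xA cells (SE 0.13) and by 0.86 in FH-AGO2 WT cells (SE 0.13), each against AGO2 KO cells, while PTP4A1 rose by 0.52 ± 0.12 in FH-AGO2 5xA cells and was not called in FH-AGO2 WT cells (0.15 ± 0.12).

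p53 also lowers cell cycle genes indirectly, through p21 and the DREAM repressor complex, and these genes were lower in the knockout. Of 41 such genes 37 fell and 0 rose in the authors' deposited table for AGO2 KO against parental cells, with a median of -0.51. Over all genes 21.2% fell and 23.2% rose in that comparison. The mitotic and repair genes BRCA1 (-0.70 ± 0.07), BIRC5 (-0.76 ± 0.08), BUB1B (-0.61 ± 0.07) and TOP2A (-0.63 ± 0.08) had the smallest p-values in the authors' deposited table. Against AGO2 KO 16 of 41 rose and 0 fell in FH-AGO2 WT cells (median 0.22) in the authors' deposited table, where 4.21% of all genes rose. In FH-AGO2 5xA cells 3 rose (7.32%) and 0 fell (median 0.09), near the 5.04% of all genes that rose. In the derived difference of FH-AGO2 5xA minus FH-AGO2 WT 0 were higher and 6 lower, with a median of -0.13 and 36 of 41 below 0, where 2.13% of all genes were lower. With the F reference none of these calls remained, since 0 of all genes were called in that comparison. CDKN1A mRNA differed by 0.04 ± 0.11 in the same comparison, and a link between it and these genes was not tested. In bulk RNA, fewer cells in cycle and less of these mRNAs per cell cannot be told apart.

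**Figure D5:**
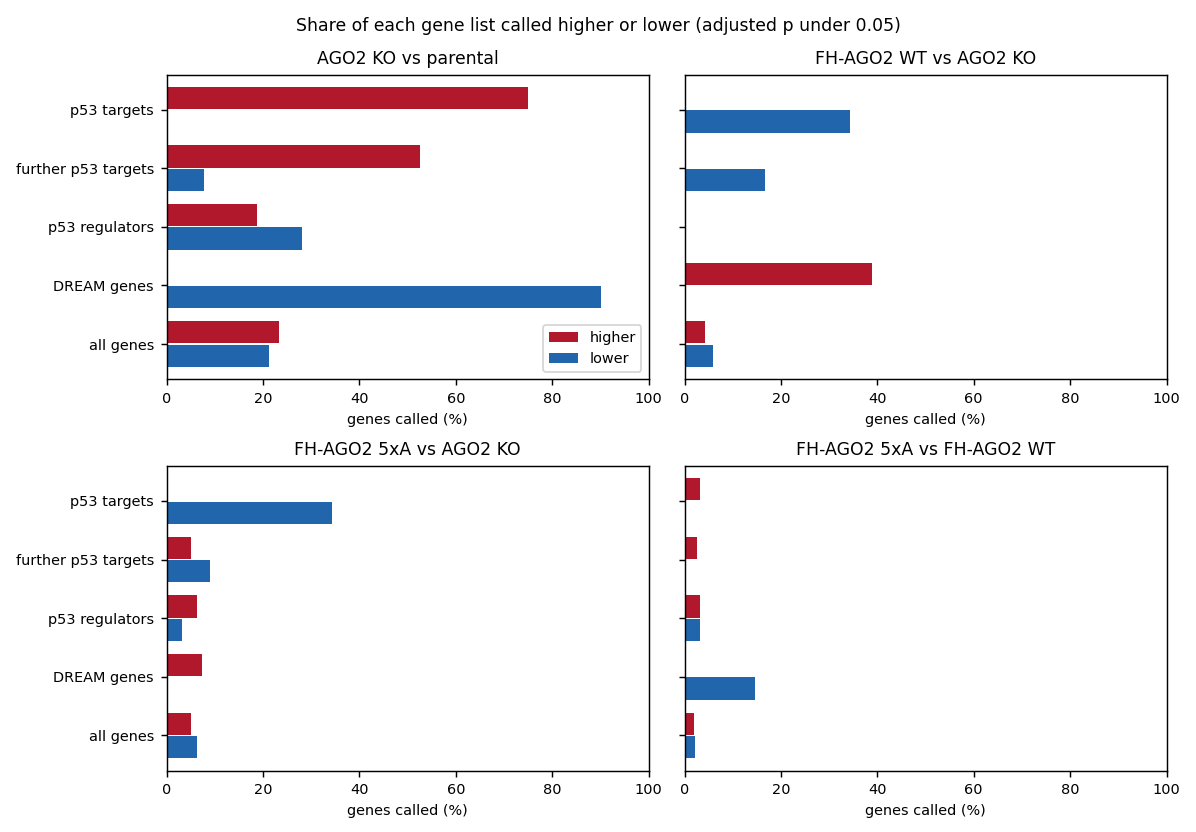
Share of each gene list (percent) called higher or lower in 4 comparisons: the 32 p53 targets, 78 further p53 targets, 32 p53 regulators, 41 DREAM genes and all genes. In AGO2 KO against parental cells 75% of the p53 targets were higher and 90.2% of the DREAM genes lower, where 23.2% and 21.2% of all genes were.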

How the data were processed

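The data were 5 tables of comparisons between 4 HCT116 lines of 3 libraries each. Each deposited table lists 15074 Ensembl genes with, per the file headers, a log2 fold change, log2 CPM, a likelihood ratio (the test score), a p-value and an FDR. Per the submitters' processing notes, the authors used edgeR 3.8.6, featureCounts 1.4.6, TopHat2 2.0.12 and Cufflinks 2.2.1 on hg38/GRCh38. For the annotation, low-count filter and strand setting, nothing is given in the sources used here. The chi-square tail of the score with 1 degree of freedom matched the deposited p-value to within 7.36e-15, and the fold changes closed across tables to within 4.62e-14.

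Counts per library were not used here, so depth is unknown, no interval from counting was made, and p-values reflect the spread among wells of the same line, not among separately made lines. The SE was the absolute log2 fold change divided by the square root of the score. For FH-AGO2 5xA against FH-AGO2 WT, the 5 squared SEs were solved for group variances by least squares and p-values were adjusted by the Benjamini-Hochberg method over 15072 genes (undefined in 2). Fitted CPM assume that the libraries weigh equally in the deposited mean. The derivation was tested on simulated data. Positions and UTRs came from GENCODE 29 (15029 genes matched), symbols from a table that matched 14974 genes. Python 3.11.15, numpy 2.4.6, scipy 1.17.1, pandas 2.3.3 and matplotlib 3.10.9 were used.

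The members and gene lists were chosen with earlier results of these data known. Named genes were all measured members, MDM4, TP63, TP73, AGO2, and of each further list the 4 genes with the smallest p in AGO2 KO against parental cells. Alternatives were a threshold of 0.01, a floor of 1 CPM, an F reference, centring on the median, leaving out chromosome 7, a minimum of 1.5-fold, and another variance or route for the derived difference. Leaving out libraries and a replicate block were planned and not run. Some results are not reported here because they are withheld.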

Additional observations from a re-analysis of the deposited data

Results flagged for a closer look

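FDXR, which encodes the mitochondrial ferredoxin reductase, was flagged because its difference between the reconstituted lines passed the derived test. FH-AGO2 5xA minus FH-AGO2 WT was 0.48 (log2; 95% interval 0.18 to 0.78, adjusted p = 0.0443), from fitted levels of 78.7 CPM in FH-AGO2 5xA cells and 56.4 CPM in FH-AGO2 WT cells. It was the single call among 32 members, and 4.11% of all genes were called in this comparison. How many of the 3 libraries of each line show the direction is not known from the tables.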

How the results depend on the processing

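Calls were lost under the alternatives run, in some comparisons all of them, and counts changed most with the reference distribution and a minimum fold. No called p53 target changed direction, but apart from centring the alternatives leave each log2 fold change as it was. They therefore do not test direction. With the F reference the count was 1 in FH-AGO2 WT against AGO2 KO (TP53INP1) and 0 in FH-AGO2 5xA against AGO2 KO, against 11 each as reported; 11 and 12 members passed an unadjusted p of 0.05 by that test. With it 86 and 92 of all genes were called, against 1516 and 1699. In AGO2 KO, FH-AGO2 WT and FH-AGO2 5xA against parental cells it left 22, 16 and 20 members, against 24, 22 and 24. A minimum of 1.5-fold left 2 members (TP53INP1 and SPATA18) in FH-AGO2 WT against AGO2 KO and 0 in FH-AGO2 5xA against AGO2 KO, and 17, 10 and 9 in the comparisons of AGO2 KO, FH-AGO2 WT and FH-AGO2 5xA with parental cells. For FH-AGO2 5xA against FH-AGO2 WT the count of 1 became 0 at a threshold of 0.01, with the F reference (0 of all genes called), with the 1.5-fold minimum and with the plain sum of variances (13 of all genes called, against 620). At an unadjusted p of 0.05, 2 members passed the derived test, and 1 passed with the F reference and with the plain sum. The F reference and the plain sum give larger p-values by construction.

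Centring on the median and a floor of 1 CPM changed no call of a member, and leaving out chromosome 7, which holds 0 members, ended 1, PPM1D in FH-AGO2 5xA against parental cells. No paired analysis was possible because the tables hold no values per library, and for the same reason no library was left out in turn. Whether a single library decides a value was therefore not tested.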
